A study of Mus musculus with 6 samples.

Results

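The numbered Zfp genes are mouse genes named Zfp followed by a number, nearly all of which encode proteins with C2H2 zinc fingers. In a deposited comparison of UTX binding between WT and UTX-deficient CD8 T cells, 109 of 6739 sites had been assigned to such a gene, and these 109 sites belonged to 98 of the 5237 gene symbols in the table. Members were chosen by symbol alone (Zfp and then a digit, in that letter case). This rule used no measured values, although earlier results of these data were known when it was chosen. The 6 sites of Zfp36, Zfp36l1 and related genes were left out, because those proteins bind RNA through another kind of finger. UTX, encoded by Kdm6a, is a histone demethylase that removes methyl groups from lysine 27 of histone H3 and also works within enhancer-activating complexes.

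UTX was mapped by CUT&Tag, in which an antibody directs a transposase to cut and tag the DNA around a bound protein. The cells were CD8 T cells sorted from pancreatic lymph nodes as Ly108+CXCR6- progenitors. The 3 WT samples came from NOD.NY8.3 mice, which are non-obese diabetic mice carrying the rearranged NY8.3 T cell receptor, and the 3 UTX-deficient samples came from NY8.3 mice that lack UTX in T cells, so both groups share the receptor transgene. The promoter that drives the deletion, the ages and any pooling of animals are not given in the labels, and the labels do not say that the 3 samples of a group came from separate animals, so the p-values measure the spread between these samples. A bulk signal does not separate fewer cells with bound UTX from less UTX bound per cell.

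C2H2 zinc fingers each read a few bases of DNA, and an array of them gives a protein its binding sequence. In many of these proteins the fingers follow a KRAB domain, which recruits the scaffold TRIM28 and, through it, histone methyltransferase and DNA methylation activities that silence retroelements and imprinted genes. The family has grown by local duplication, so that many of its genes lie in clusters of near-identical copies, while other members (without KRAB) act as ordinary transcription factors or as parts of chromatin and ubiquitin ligase complexes.

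Most of these sites lay within 500 bp of a gene's start, so the promoters of 5 members are shown. They were chosen as the member with the most WT signal and the most CCAAT boxes, 3 more members rich in that motif, and the member that kept the largest share of its signal in UTX-deficient cells. Each run is the RefSeq window of mm10 (GRCm38.p6) from 250 bases before to 50 bases after the start, written 5′ to 3′ on the gene's strand, and capitals mark the CCAAT box (CCAAT or its reverse complement ATTGG).
Zfp687: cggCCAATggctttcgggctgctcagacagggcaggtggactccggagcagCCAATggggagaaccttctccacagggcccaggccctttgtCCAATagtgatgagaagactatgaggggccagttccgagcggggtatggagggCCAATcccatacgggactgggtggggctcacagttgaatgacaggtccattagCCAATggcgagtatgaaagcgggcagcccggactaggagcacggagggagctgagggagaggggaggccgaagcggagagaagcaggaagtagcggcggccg
Zfp691: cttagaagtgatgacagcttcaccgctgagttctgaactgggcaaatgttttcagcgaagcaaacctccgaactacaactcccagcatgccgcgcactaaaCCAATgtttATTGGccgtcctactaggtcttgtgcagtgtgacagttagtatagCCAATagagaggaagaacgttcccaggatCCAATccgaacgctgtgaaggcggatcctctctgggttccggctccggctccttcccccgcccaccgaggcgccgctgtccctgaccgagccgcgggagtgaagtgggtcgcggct
Zfp775: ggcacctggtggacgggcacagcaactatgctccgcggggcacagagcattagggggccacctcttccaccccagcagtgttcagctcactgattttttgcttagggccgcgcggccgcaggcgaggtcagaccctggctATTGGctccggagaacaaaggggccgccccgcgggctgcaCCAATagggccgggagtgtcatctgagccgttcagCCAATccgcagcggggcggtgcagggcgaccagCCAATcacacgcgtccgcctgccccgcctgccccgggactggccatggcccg
Zfp869: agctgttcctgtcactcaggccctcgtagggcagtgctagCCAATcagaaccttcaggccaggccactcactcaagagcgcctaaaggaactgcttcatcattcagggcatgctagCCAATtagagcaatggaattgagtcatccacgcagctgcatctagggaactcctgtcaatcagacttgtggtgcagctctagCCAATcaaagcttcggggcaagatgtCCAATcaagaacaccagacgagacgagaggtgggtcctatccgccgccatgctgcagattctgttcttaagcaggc
Zfp788: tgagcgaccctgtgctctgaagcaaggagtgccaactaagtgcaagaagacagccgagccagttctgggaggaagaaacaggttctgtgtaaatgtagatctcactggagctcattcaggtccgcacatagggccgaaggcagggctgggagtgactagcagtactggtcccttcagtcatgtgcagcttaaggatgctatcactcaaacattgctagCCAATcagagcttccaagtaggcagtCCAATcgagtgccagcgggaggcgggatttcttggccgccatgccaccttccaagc
The Zfp687 window lies at chr3:95015408-95015707 on the minus strand and shares 249 bases with its UTX site at chr3:95015459-95015859. The Zfp691 window, chr4:119174146-119174445 on the minus strand, and the Zfp775 window, chr6:48601757-48602056 on the plus strand, lie wholly inside their sites. The Zfp869 window, chr8:69716853-69717152 on the minus strand, shares 298 bases with its site. The Zfp788 window, chr7:41633281-41633580 on the plus strand, shares 204 bases with the site at chr7:41633084-41633484. The Zfp687 window holds 5 CCAAT boxes, those of Zfp691, Zfp775 and Zfp869 hold 4 each and that of Zfp788 holds 2.

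UTX binding was lower in UTX-deficient cells at all 109 Zfp sites and higher at none. This count carries no contrast with other genes, because 99.7% of all sites in the authors' deposited table were called higher in WT, and the table holds only sites with an FDR under 0.05. At the stricter FDR of 0.01, 94 of 109 member sites (86.2%) passed in the authors' deposited table, beside 86.6% of all sites. The whole-number reads behind the deposited concentrations could be recovered for each library. They showed that 1 of the 3 UTX-deficient libraries was nearly empty, with a relative depth of 0.00577 against 1.93 and 1.07 for the other two, while the WT libraries stood at 1.28, 0.916 and 0.792. No Zfp site had a read in that library. There, 1 read is worth 173 normalized reads, so its zeros say little about a site. Limma over all 6 libraries, given next, takes these zeros as low values. In limma over all 6 libraries, the 109 Zfp sites were lower without UTX (largest adjusted p = 0.000328, Benjamini-Hochberg over all sites), with a median log2 difference of -4.70 beside -4.67 over all sites, of which 99.8% were called lower. Without the nearly empty library, limma called all 109 lower (largest adjusted p = 0.00773), as it did 99.8% of all sites. The log2 differences at Zfp sites then ran from -5.75 to -2.09 with a median of -4.17, beside -4.01 over all sites. The authors had kept these sites because they differed between the same libraries. Both limma fits are therefore no independent test, and such calls could hardly fail. In the 5 covered libraries, the WT values lay above the UTX-deficient values at each of the 109 Zfp sites, as they did at 100% of the other sites higher in WT. Libraries are named below by depth, since the recovered values carry no replicate number.

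In all, the 3 WT libraries held 5245, 4285 and 3080 reads in Zfp sites, from the deepest to the shallowest, and the UTX-deficient libraries held 251, 361 and 0. A single Zfp site had a median of 34, 32 and 20 reads in the WT libraries and of 2 reads in each of the covered UTX-deficient libraries. Per site, the normalized signal averaged 38.7 ± 3.75 reads (SD, n = 3) in WT and 2.14 over the covered UTX-deficient libraries, an 18.1-fold difference, with 5.52% of the WT signal left. The share left was 3.07% in the deeper and 7.97% in the shallower of these libraries. In proportion to their level, these libraries thus differed from each other by more than the WT libraries did. The other sites gave 16.8-fold and 5.96%, with 2.88% left in the deeper and 9.05% in the shallower library, so Zfp sites kept slightly more than the others in one library and less in the other. With the nearly empty library counted, 3.68% was left at Zfp sites and 3.98% at the others.

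**Figure D1:**
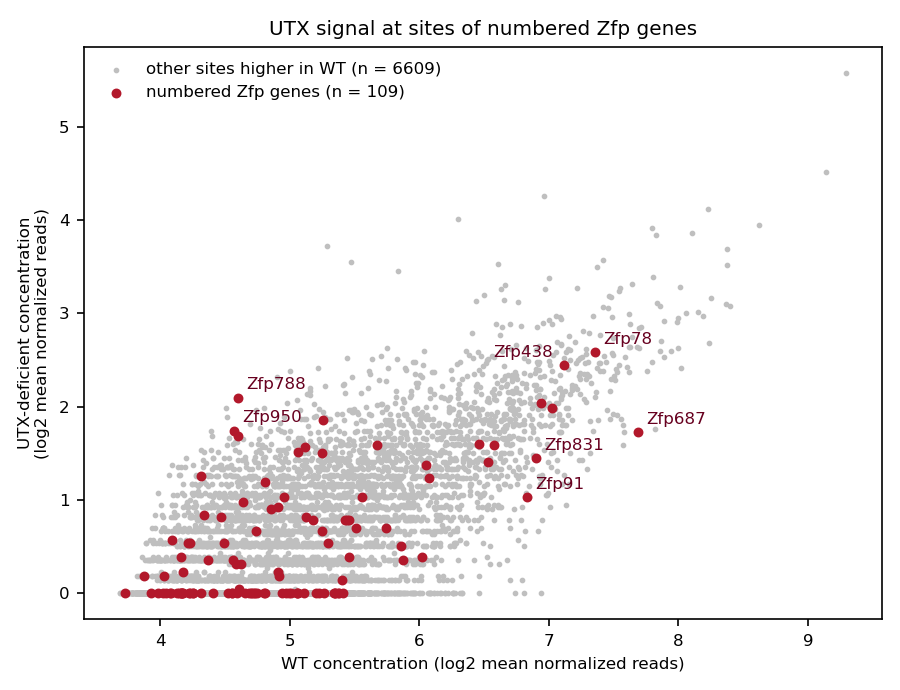
UTX signal at each site as the authors' log2 mean normalized reads, in WT cells (x axis) and UTX-deficient cells (y axis), with the 109 Zfp sites in red over the other sites higher in WT in grey. The red points lie within the grey cloud and many lie on its floor at 0, with Zfp687 farthest right and Zfp788 high for its WT signal.

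The residual level was asked of each site next. In the authors' deposited table the median UTX-deficient concentration was 0.19 at Zfp sites and 0.35 at the other sites, on a log2 scale whose lowest value is 0. It was at that floor at 50 of 109 Zfp sites (45.9%) and at 37.5% of the others in the authors' deposited table. Zfp sites also started lower, with a median WT concentration of 4.81 against 4.94 in the authors' deposited table, and the median fold was -3.48 and -3.50, which is nearly the same. The sites were therefore set side by side within 4 bins of rising WT signal, cut at the quartiles of all sites. In the weakest bin 66.7% of 30 Zfp sites and 64.3% of the others were at the floor, and in the next 44.8% of 29 and 48.7%. In the third bin the share was 53.1% of 32 Zfp sites against 29.8%, and in the strongest it was 0% of 18 against 7.38%, where the median UTX-deficient concentration was 1.43 for Zfp sites and 1.33 for the others in the authors' deposited table. The excess of Zfp sites at the floor was thus found mainly in the third bin and did not run one way through all of them. The share of WT signal left over the covered libraries had a median of 5.16% at Zfp sites (range 0 to 26.6%) and 5.76% at the others, and 18 Zfp sites (16.5%) kept more than 10%, beside 15.2% of the others. None of these gaps was tested, since the sites share the same libraries.

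Zfp687, which encodes a chromatin reader complex partner of Zfp592 and ZMYND8, had the strongest UTX site of the family. The WT libraries counted 255, 205 and 154 reads there, and the UTX-deficient libraries 3, 9 and 0. Its WT mean was 206 ± 15.7 normalized reads (SD, n = 3), 2.41% of it was left, and the authors' deposited table gives a fold of -5.26 with an FDR of 1.66e-21. Zfp91, an E3 ubiquitin ligase linked to non-canonical NF-kappaB signalling, held 147, 117 and 78 reads in WT and 1, 6 and 0 without UTX, with a fold of -5.17 in the authors' deposited table. Both genes had every WT library far above both covered UTX-deficient ones. Zfp78 was the member with the most signal left in absolute terms, with 221, 163 and 112 reads in WT against 15, 11 and 0, or 5.49% of its WT level. Zfp438 held 158, 140 and 111 reads against 10, 12 and 0, Zfp367 held 166, 102 and 101 against 4, 11 and 0, and Zfp831 held 138, 127 and 89 against 5, 6 and 0. The strong sites of the family therefore still held some reads in UTX-deficient cells, whereas a share of the same size is close to the level of single reads at the weak sites.

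**Figure D2:**
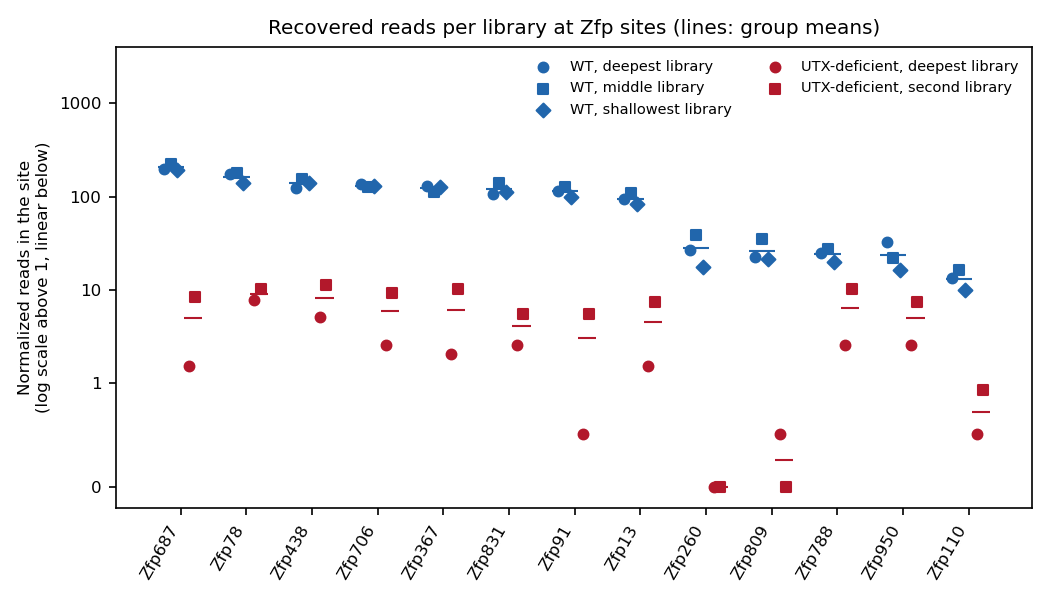
Normalized reads in each WT (blue) and covered UTX-deficient (red) library at named Zfp sites, on an axis that is logarithmic above 1 and linear below, with lines at the group means. At each of these sites the WT points lie above all red points, and Zfp788 and Zfp950 show the narrowest gap.

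Only Zfp260 had no read in any UTX-deficient library, against 34, 36 and 14 reads in WT. A floor of 3 reads over the covered libraries makes it at least 27.9-fold higher in WT, a bound for counting error only. Zfp444 with 42, 32 and 35 reads in WT, Zfp628 with 41, 41 and 18, and Zfp652 with 45, 44 and 31 each kept 1 read. Sites without any read in UTX-deficient cells made up 1.48% of the other sites. The weakest WT site was that of Zfp110, with 17, 15 and 8 reads against 1, 1 and 0, and its FDR of 0.0444 in the authors' deposited table is the highest of the family.

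The site that kept the largest share was that of Zfp788. Its WT libraries counted 32, 25 and 16 reads against 5, 11 and 0, so that 26.6% was left, with a fold of -1.66 and an FDR of 0.0392 in the authors' deposited table. Zfp950 followed, with 42, 20 and 13 reads against 5, 8 and 0 and 21.2% left. Zfp1006 kept 19.9%, and Zfp961 held 31, 15 and 15 reads against 3, 6 and 0. These were weak sites, and the deepest UTX-deficient library held only 3 to 6 reads at each of them, so their shares rest on few reads. Zfp619 carried both of its sites with a raised share, 14.2% at 49, 40 and 26 reads against 3, 10 and 0, and 9.83% at 40, 29 and 24 reads against 1, 6 and 0.

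The gene lists below are read against 24.7% of annotated numbered Zfp genes and 22.1% of all protein-coding genes that had a site. The lists were chosen with earlier results of these data known, so their counts are a description and no test. Of 9 genes annotated as protein-coding with known or proposed roles in lymphocytes, 8 had a site, with 10 sites in all and a median fold of -3.46 from the authors' deposited table. Zfp335, which is needed for T cells to mature after the thymus, held 37, 27 and 25 reads in WT against 5, 1 and 0 at one site and 30, 33 and 15 against 3, 1 and 0 at another. Zfp281, a repressor known from pluripotent cells, held 41, 47 and 30 reads against 2, 1 and 0 at its stronger site. Zfp384, a partner in fusion genes of acute leukaemia, held 44, 38 and 22 against 0, 2 and 0. The list also held Zfp831 and Zfp91, described above among the strongest sites of the family. At its weak end were Zfp318, which controls IgD production in B cells and had 28, 20 and 10 reads against 3, 3 and 0, and Zfp407, with 28, 17 and 16 against 5, 3 and 0 and 13.3% left. Zfp148 had no site in the table. Neither did Zfp683, which is among the 10 listed symbols but was not among the 9 annotated genes, so it is left out of that share.

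Of 18 genes that act with chromatin complexes, 7 had a site, beside 24.7% of annotated numbered Zfp genes and 22.1% of all protein-coding genes. Their sites had a median fold of -3.82 in the authors' deposited table. Besides Zfp687 these genes were its complex partner Zfp592 (33, 25 and 19 reads in WT against 2, 1 and 0), the CoREST partner Zfp217, the G9a partner Zfp644, and Zfp292, Zfp516 and Zfp638. The stronger of the 2 Zfp217 sites, 80373 bp from the gene's start, held 87, 50 and 41 reads against 1, 4 and 0. Zfp644 held 20, 29 and 15 reads against 3, 4 and 0. Zfp638, which silences unintegrated retroviral DNA with the HUSH complex, held 29, 15 and 12 against 5, 1 and 0. The list thus spanned the strongest and some of the weaker sites of the family.

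Of 15 genes known or proposed to repress retroelements or imprinted genes, 3 had a site, a share close to that of all genes. Zfp809, which silences proviruses through their primer binding site, held 29, 32 and 17 reads in WT against 1, 0 and 0, and kept 0.98% of its signal. The other two were Zfp788 and Zfp961, described above among the sites that kept the largest shares, so the 3 genes lay at opposite ends of the family. Of 10 genes with roles in RNA, ribosomes or the spindle, 3 had a site, also close to the share of all genes. Zfp598, the ubiquitin ligase that marks collided ribosomes, held 23, 21 and 10 reads against 2, 2 and 0. The others were Zfp706 and Zfp91, and Zfp91 was also counted in the lymphocyte list.

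The partners through which KRAB proteins act are not members of the family. Of 27 annotated genes listed for this corepressor machinery, 18 had a site, beside 22.1% of all protein-coding genes, in a list chosen with earlier results known. The list was broad and held Gtf2i, a general transcription factor gene that is no dedicated KRAB partner. Gtf2i had several of the listed sites, among them the strongest, with 212, 193 and 127 reads in WT. The values below include them. Their 27 sites were each lower in UTX-deficient cells, with a median fold of -4.09 in the authors' deposited table beside -3.48 for Zfp sites. They also had more WT signal, with a median concentration of 5.33 against 4.81 in the authors' deposited table, and kept 4.68% of it against 5.16%. Among Zfp sites the median fold itself went from -2.78 in the weakest bin of WT signal to -4.36 in the strongest. The 2 sets were not compared at equal WT signal. Trim28, the scaffold itself, held 77, 68 and 47 reads in WT against 1, 5 and 0 at one site and 36, 30 and 22 against 1, 1 and 0 at another. The DNA methyltransferases Dnmt1 and Dnmt3a had sites and the H3K9 methyltransferase Setdb1 had none in the table. Sites of other C2H2 families, such as Zbtb and Ikzf genes, numbered 34, all lower without UTX, with a median fold of -3.65 in the authors' deposited table and 5.29% of the signal left.

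Zfp sites lay close to each other along the chromosomes. The nearest site of another gene was itself a Zfp site at 28 of 109 (25.7%), beside 1.18% of the other sites. Within 250 kb another Zfp gene's site was found for 38.5% of Zfp sites and 4.21% of the others, and within 1 Mb for 45.0% and 12.7%. Chromosome 7 carried 31 sites of 30 genes, which is 28.4% of Zfp sites against 7.66% of the others. Chromosome 17 carried 14 sites (12.8% against 5.64%) and chromosome 8 carried 11 (10.1% against 5.49%), while chromosomes 10 and X carried none. The genes themselves are clustered in the genome, and these counts hold both that clustering and the choice of which of them had a site.

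**Figure D3:**
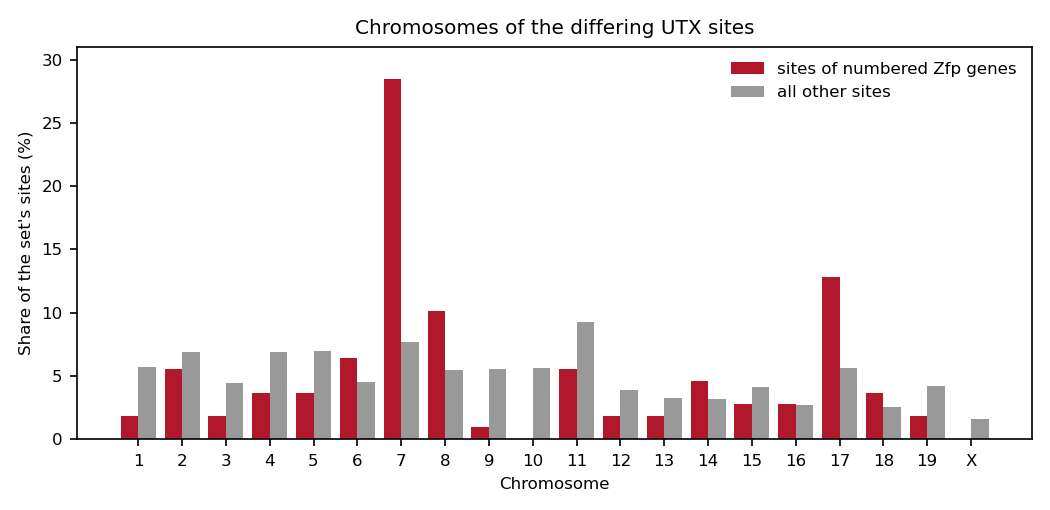
Share of sites on each chromosome (y axis, percent) for Zfp sites and for the other sites. Zfp sites reach 28.4% on chromosome 7 against 7.66% of the others, and none lie on chromosomes 10 and X.

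Joining Zfp sites less than 1 Mb apart gave 15 runs with at least 2 genes, which held 49 sites. The run with the most sites lay at chr17:21450107-21680087, where all 7 sites belonged to Zfp51, Zfp53, Zfp52 and Zfp983, with a median of 8.85% left. Zfp51 held 58, 44 and 47 reads in WT against 3, 8 and 0 at its stronger site, and Zfp983 held 48, 31 and 26 against 1, 9 and 0. At chr7:6155753-6363100 all 4 sites belonged to Zfp787, Zfp444, Zfp667 and Zfp78, and at chr8:69625327-69774974 all 4 belonged to Zfp868, Zfp869, Zfp963 and Zfp866, with medians of 4.49% and 5.51% left. Zfp869, the strongest of the last 4, held 98, 89 and 72 reads against 5, 7 and 0. By contrast, the 5 sites of Zfp771, Zfp764, Zfp688, Zfp689 and Zfp668 at chr7:127244205-127876291 stood among 19 sites. Neighbours in a run did not share one level, as Zfp78 and Zfp787 show with 221 and 29 reads in the deepest WT library.

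Lying in a run made little difference to the signal. The 49 sites in runs and the 60 others had in the authors' deposited table median UTX-deficient concentrations of 0.19 and 0.19, with -3.48 and -3.53 as median folds. The share left was 5.33% and 4.84%. It reached 13.0% at most in runs and 26.6% outside them, where Zfp788 stood.

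Against the genome's own catalogue, 97 of 393 annotated numbered Zfp genes (24.7%) had a site, beside 22.1% of all protein-coding genes. Bound genes were least frequent where the genes were most crowded. Of Zfp genes with no other within 500 kb, 40 of 125 (32.0%) had a site, and of those with 6 or more neighbours, 17 of 116 (14.7%) did. The share was 27.3% with 1 to 2 neighbours and 25.3% with 3 to 5. With only sites within 1 kb of a gene end counted, the shares from least to most crowded were 20.8%, 15.6%, 20.0% and 9.48%, which is no steady fall. Clusters of at least 5 genes ranged from none to most of their genes with a site. None of 24 genes at chr13:66670274-67827000 and none of 16 at chr4:145510759-147849126 had a site, nor did any in the clusters of 6 genes on chromosome 11 and of 5 at chr9:20345136-20605404. The count was 6 of 23 at chr17:21008941-23599755, 1 of 13 at chr17:32765496-33631716, 3 of 15 at chr7:29768552-30169775 and 3 of 14 at chr7:24081877-25227876. The largest shares were 5 of 10 at chr7:127233061-127885996, 3 of 6 at chr7:4915181-5053723 and 4 of 6 at both chr8:69209018-69774911 and chr7:6131489-6396637. On chromosome 7 as a whole, 30 of 92 Zfp genes (32.6%) had a site, beside 20.1% of all its protein-coding genes. How reads that fit several near-identical genes were handled is not given in the sources used here, its part in these counts was not tested, and a gene without a site had none in a table that lists only differing sites.

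**Figure D4:**
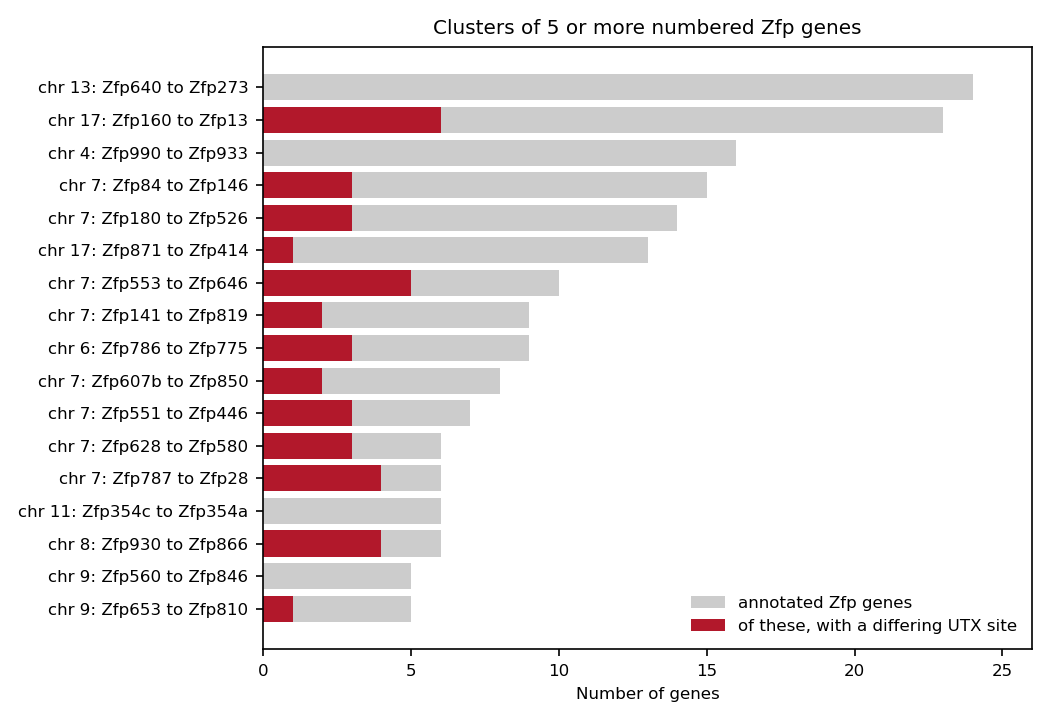
Numbered Zfp genes in each cluster of at least 5 genes with gaps of at most 500 kb, split into genes with and without a UTX site (bars, number of genes). The clusters of 24 genes on chromosome 13 and 16 genes on chromosome 4 have no gene with a site.

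Of 90 member sites whose gene has a RefSeq start, 66 (73.3%) lay within 500 bp of it, beside 57.1% of the other sites, and the median distance was 155 bp against 252 bp. A further 20 sites (22.2%) lay more than 10 kb away, and the site assigned to Zfp507 was the farthest of the 90, at 188320 bp. Only listed starts were used, and the Zfp638 site, counted here at 47127 bp, lay 158 bp from an outer boundary of that gene. Where they also lie far from the gene's boundaries, such sites tell little about the assigned gene. The Zfp82 site, for one, lay within 500 bp of the start of its neighbour Zfp566. Sites near the start and the 24 farther away had, in the authors' deposited table, median folds of -3.42 and -3.61, and 5.16% and 5.23% of the signal left. Of the 66 sites near a start, 9 also lay within 500 bp of another gene's start, as at Zfp672 with Sh3bp5l and at Zfp687 with 4930481B07Rik, and the signal of such a site cannot be given to one of them.

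**Figure D5:**
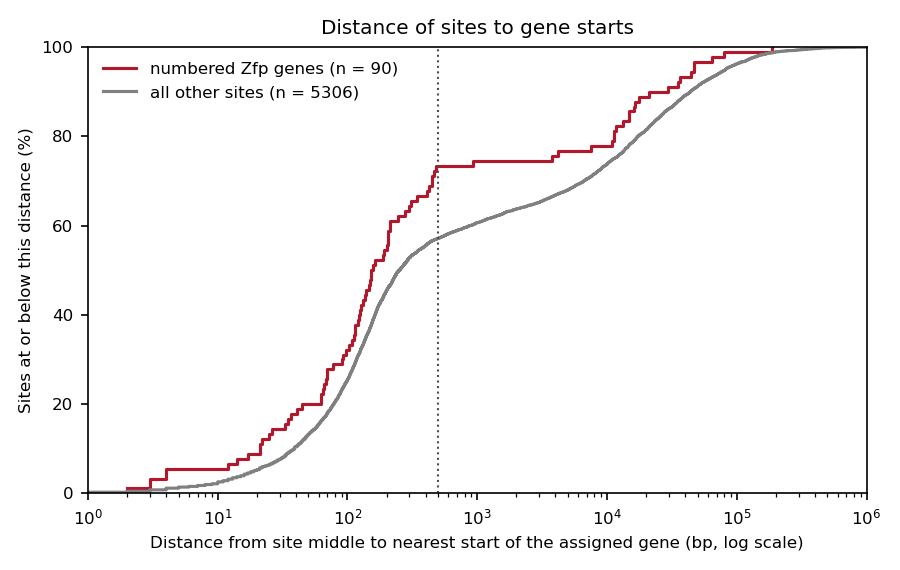
Distance between a site's midpoint and the nearest start of its assigned gene (x axis, base pairs), on a log scale, against the cumulative share of sites at or below it (y axis, percent) for the 90 Zfp sites and the other sites, with a dotted line at 500 bp. Zfp sites lie nearer, with 73.3% against 57.1% within 500 bp.

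There were 11 genes with 2 assigned sites each, which need not lie inside the gene. The site with more WT signal exceeded the other by 1.01-fold at Zfp53 up to 3.92-fold at Zfp706, where the stronger site held 174, 115 and 102 reads against 5, 10 and 0. That stronger site lay 58010 bp outside the gene, 1022 bp from the start of Gm34590, and 68458 bp from the weaker site. The weaker site held 35, 36 and 26 reads against 2, 2 and 0. It overlapped an outer boundary of the gene, which had no RefSeq start here to tell which end this is. Both sites of each such gene were lower in UTX-deficient cells.

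CCAAT boxes were frequent in Zfp promoters that overlapped a UTX site. CCAAT or ATTGG was found in 48 of 81 such windows (59.3%), in 44.7% of 322 Zfp windows without a site, in 46.1% of all windows with a site and in 37.4% of all 32851 promoter windows of the same length. The ETS core CCGGAAGT, searched on both strands, was found in 10 of the 81 (12.3%), beside 9.01% of Zfp windows without a site, 8.25% of all windows with a site and 3.89% of all windows. The Zfp windows with a site had a median of 20 CpG dinucleotides, those without a site 12, and all windows with a site 25. The motif for ZFP143, ACTACAATT, was found in 2.47% of Zfp windows with a site and 2.80% of those without, both above the 0.393% of all windows. A match is a run of letters and not evidence of a bound factor.

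The labelled cell type was checked by the presence of differing UTX sites, which is not a measure of expression. Sites were present at 4 of 5 CD8 T cell genes (Cd8a, Cd8b1, Cd3d and Cd3e) and at both progenitor genes, Tcf7 and Slamf6. Of 10 genes listed for other cell types, 1 had a site, Pecam1, which is not exclusive to those cells. Cxcr6, whose protein the sort excluded, also had a site. The near-empty library aside, recovered reads in Zfp sites were 1.51%, 1.55% and 1.54% of the recovered reads in all sites higher in WT in the WT libraries and 1.63% and 1.35% in the UTX-deficient ones.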

How the data were processed

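UTX CUT&Tag of 3 WT and 3 UTX-deficient samples was read from 1 table of the authors. The submitters' processing notes name mm10 and, without versions, the tools Bowtie2, MACS2, DiffBind, SAMtools, Picard, cutadapt and FastQC. Tool roles, the handling of multiply mapped reads and whether peaks were called on pooled samples were not given in the sources used here. As log2 values of normalized reads per the file headers, the concentrations and the fold were deposited with the authors' p-value and FDR for each site of 401 bp. IgG controls were not used here.

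Each group's concentration is the mean of 3 whole read numbers, each times the worth of 1 read. The reads per library were solved from this for 6728 sites, all 109 Zfp sites included, with 1 solution each. They were tested with limma 3.58.1 (R 4.3.3) on log2(normalized reads + 0.5), all 6 libraries, adjusted over all sites at 0.05, after a test on simulated data. The share of signal left uses the 2 covered UTX-deficient libraries unless stated. Depth limits precision: intervals and floors cover counting error only.

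Annotation, starts and promoters came from RefSeq GRCm38.p6 (108 of 109 sites matched, and 19 had no promoter entry). The members and gene lists (lymphocyte, chromatin, retroelement, RNA, KRAB corepressor and other C2H2 genes) were chosen with earlier results of these data known. Named sites were those with the highest or lowest concentrations, the most negative folds and smallest FDRs, genes with 2 sites, runs and list members, and a few illustrative ones were chosen after their values were seen. Alternatives covered FDR, distance, 1 site per gene, bins of WT signal, windows, pseudocount, filter, quantile normalization and each library left out.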

Additional observations from a re-analysis of the deposited data

How the results depend on the processing

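Each of 31 alternatives was compared with the reported value, and 22 gave the same call or a value within the set tolerance, 7 kept their sign but moved by more than that, 1 lost its call and 1 changed sign. Restricting to sites within 1 kb of a gene end left 64 of 109 Zfp sites and 64 of 97 annotated Zfp genes, because fewer sites enter. The median UTX-deficient concentration of Zfp sites minus that of the others (log2), -0.17 as reported, became -0.0387 within 1 kb of a gene end, -0.0833 among sites above the floor and -0.0906 within the 4 bins of WT signal, and the cause was not tested. The median fold difference, 0.02, became 0.28 within 1 kb of a gene end and turned to -0.10 within the 4 bins of WT signal, so no direction can be read from it. Counting 2 neighbours on each side raised 28 sites with a Zfp neighbour to 49. Quantile normalization, which gives all libraries 1 distribution and moves the median of all sites to -0.01, left 0 Zfp sites called by limma, with 30 at an unadjusted p under 0.05. Leaving out each library gave 109 to 109 sites called by limma. The share of signal left, 3.68% over 3 UTX-deficient libraries, ranged from 1.54% without the second to 5.52% without the nearly empty one. Its tolerance was the SD of the 3 UTX-deficient libraries, 1.56 normalized reads, which is larger than their mean of 1.43. No fall could exceed that tolerance, so falls in this share counted as within it without being a check. No paired analysis was possible because the recovered libraries carry no replicate number. Sites at the floor hold too few reads to rank one against another.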

Other observations

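The 6 sites of the Zfp36 family, RNA-binding proteins that hasten the decay of cytokine messages and share only the name, had a median WT concentration of 6.40 and a median fold of -3.87 in the authors' deposited table, beside 4.81 and -3.48 for the numbered Zfp sites. They were all higher in WT.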
